A study of Mus musculus with 20 samples.

Results

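Hepcidin and 9 acute phase genes of the liver were followed in 20 adult male mice whose mothers had been kept at different temperatures. The 10 genes are Hamp, Saa1, Saa2, Orm1, Orm2, Hp, Hpx, Lcn2, Itih3 and Apcs. They were picked by their gene symbols in the platform annotation, and each had 1 row among the 22206 transcript clusters of the table, so 10 of 10 could be described and no filter on low values was applied. The 20 mice were C57BL/6NCr males aged 4 to 5 months, an inbred strain with no engineered allele named in the labels, in 4 groups of 5. Dams gestated at 10 °C or 18 °C after 2 weeks of acclimation, or at 30 °C after 3 weeks. The 23 °C dams, under standard housing, are the control. Sires spent 3 days at the temperature in the 10 °C, 18 °C and 30 °C groups, and no sire exposure is given for the 23 °C group. All offspring were moved to 23 °C at birth and ate chow freely, so every group spent postnatal life at the control temperature. The labels name no litter, dam, batch, hour of sampling or feeding state. P-values set a group difference against the spread of arrays within groups, with the arrays taken as independent. Sons of the same dam cannot be told apart from sons of different dams, so the p-values may be too small.

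The acute phase response is the change in the proteins that hepatocytes secrete during infection or injury. Interleukin-6 acts through STAT3, and interleukin-1 through NF-kB and C/EBP factors, to raise the messenger RNAs of serum amyloid A, haptoglobin, orosomucoid and other plasma proteins. Hepcidin, the peptide encoded by Hamp, binds the iron exporter ferroportin and so lowers the release of iron into plasma. Hamp answers to the same interleukin-6 signal and, separately, to bone morphogenetic protein (BMP) signals that report body iron through SMAD proteins.

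The stretches of 250 bases before the transcription start are shown for the genes on which the results turn, because they carry the sequence motifs of those routes. They come from the RefSeq promoter table (build GRCm38.p6), which held 8 of the 10 genes and not Orm1 or Hp. Sequences run 5′ to 3′ on the strand of the gene, and capitals mark motif matches.
Hamp (chr7:30944030-30944279, minus strand): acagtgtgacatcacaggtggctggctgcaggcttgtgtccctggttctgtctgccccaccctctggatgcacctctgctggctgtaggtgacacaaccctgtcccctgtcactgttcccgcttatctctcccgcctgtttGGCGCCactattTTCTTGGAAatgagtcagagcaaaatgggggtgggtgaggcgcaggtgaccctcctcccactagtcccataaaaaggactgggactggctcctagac
Saa1 (chr7:46742981-46743230, minus strand): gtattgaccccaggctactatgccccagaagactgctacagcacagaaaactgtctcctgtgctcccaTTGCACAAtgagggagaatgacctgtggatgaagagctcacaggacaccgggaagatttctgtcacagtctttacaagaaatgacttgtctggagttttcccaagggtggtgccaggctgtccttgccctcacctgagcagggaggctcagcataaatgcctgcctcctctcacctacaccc
Saa2 (chr7:46751583-46751832, plus strand): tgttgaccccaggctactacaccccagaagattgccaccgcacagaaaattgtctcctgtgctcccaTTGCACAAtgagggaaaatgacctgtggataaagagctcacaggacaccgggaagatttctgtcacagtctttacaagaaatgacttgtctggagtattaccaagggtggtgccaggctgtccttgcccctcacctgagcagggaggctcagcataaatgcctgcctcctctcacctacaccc
Lcn2 (chr2:32387740-32387989, minus strand): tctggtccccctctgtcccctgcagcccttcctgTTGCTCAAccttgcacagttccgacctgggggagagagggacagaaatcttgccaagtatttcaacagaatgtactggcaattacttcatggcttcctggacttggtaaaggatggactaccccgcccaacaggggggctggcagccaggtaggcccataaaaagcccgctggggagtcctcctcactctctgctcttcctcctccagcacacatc
In Hamp the capitals are a BMP response element core (GGCGCC, 109 to 104 bases before the start) and a STAT motif (TTCTTGGAA, 97 to 89 bases before it). In Saa1, Saa2 and Lcn2 they are C/EBP motifs, which begin 182, 183 and 216 bases before the start. The motifs searched on both strands were TTCNNNGAA for STAT, TTGCNNAA for C/EBP, GGG, any 3 bases and TTCC for NF-kB and GGCGCC for the BMP response element, and no 2 marked matches overlap. Among the 8 windows, 2 hold the STAT motif, 5 the C/EBP motif, 1 the BMP response element and 0 the NF-kB motif. Of all 32851 promoter windows of this length, 7.02%, 9.56%, 9.59% and 4.65% hold the STAT, C/EBP, BMP and NF-kB motif. A match is a description of letters only. The windows of Saa1 and Saa2 are 94.8% identical, at 238 of 251 aligned columns. Saa1 and Saa2 are adjacent coding genes of chromosome 7 and near copies of each other. Hamp and Hamp2 are likewise adjacent on chromosome 7, and Orm1 and Orm2 on chromosome 4 have 1 coding gene between them, Orm3. Probes may read more than 1 copy, so how the signal divides within these pairs is uncertain.

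Values are log2 expression values, on which a difference of 1 is a 2-fold difference. Array medians lay between 4.46 and 4.56, and the arrays correlated with each other at 0.987 to 0.993 over all clusters. Hepatocyte genes were bright on all arrays, with albumin (Alb) at 19.83 to 19.93. Negative control rows averaged 4.40 to 4.75 per array, so values in that range may be background. A set of dim background control rows averaged 3.71 ± 0.02 in 10 °C, 3.71 ± 0.04 in 18 °C, 3.66 ± 0.06 in 30 °C and 3.65 ± 0.02 in 23 °C offspring (SD, n = 5 each). One array stands apart in these genes, that of 10 °C animal 6, and differences that use it are given with and without it. Below, the arrays of a group are listed by animal number: 2, 4, 5, 6 and 8 at 10 °C; 1, 3, 4, 5 and 7 at 18 °C; 4 to 8 at 30 °C; 1, 2, 15, 17 and 23 at 23 °C.

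Across the maternal temperatures, none of the 10 genes passed the test in any comparison. With limma and an adjusted p under 0.05, 0 of 10 were called between 10 °C and 23 °C, where 0.00901% of all clusters were, and 0 of 10 in the other 5 comparisons, where 0% were. The 4-group F-test and the slope on maternal temperature also called 0 of 10 and 0% of all clusters. The smallest F-test adjusted p was 0.444, for Orm2. At an unadjusted p under 0.05 stood 1 gene (Orm2) between 10 °C and 23 °C, where the share of all clusters was 11.6%. Between 18 °C and 23 °C, 3 genes did (Hamp, Orm2 and Itih3), against 9.25% of all clusters, and between 30 °C and 23 °C 1 gene (Orm2), against 4.84%. Hp and Itih3 were the 2 genes between 18 °C and 30 °C (background 8.21%) and also the 2 between 10 °C and 18 °C (8.1%), and 0 stood there between 10 °C and 30 °C (6.76%). Without 10 °C animal 6, 3 genes (Orm2, Lcn2 and Saa2) stood there between 10 °C and 23 °C (12.6%), and 1, Lcn2, between 10 °C and 30 °C (8.15%) and between 10 °C and 18 °C (7.31%). Saa2 and Lcn2 then joined the 3 between 18 °C and 23 °C, making 5 (9.51%), Saa2 joined the 2 between 18 °C and 30 °C, making 3 (8.55%), and 1 (Orm2) stood between 30 °C and 23 °C (4.97%). In 0 of 10 genes did the groups not overlap between 10 °C and 23 °C (2.45% of all clusters), 30 °C and 23 °C (0.752%), 10 °C and 30 °C (0.982%) or 10 °C and 18 °C (1.42%). The 3 comparisons with 23 °C share the same 5 control arrays, so a low or high value there enters all of them. All 10 genes were lower in 18 °C than in 23 °C offspring, with a median log2 difference of -0.36, where the median of all clusters was 0.00. Over 31 alternatives Apcs changed sign in 6, Hpx in 2, Orm1 in 1 and Saa1 in 1, and the other 6 genes in 0. Many of the 31, such as leaving out an array of another group, cannot change a difference. Between 10 °C and 23 °C, 5 were higher and 5 lower (median -0.02), and without 10 °C animal 6, 1 was higher and 9 lower (median -0.29). Between 30 °C and 23 °C, 4 were higher and 6 lower (median -0.17).

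**Figure D1:**
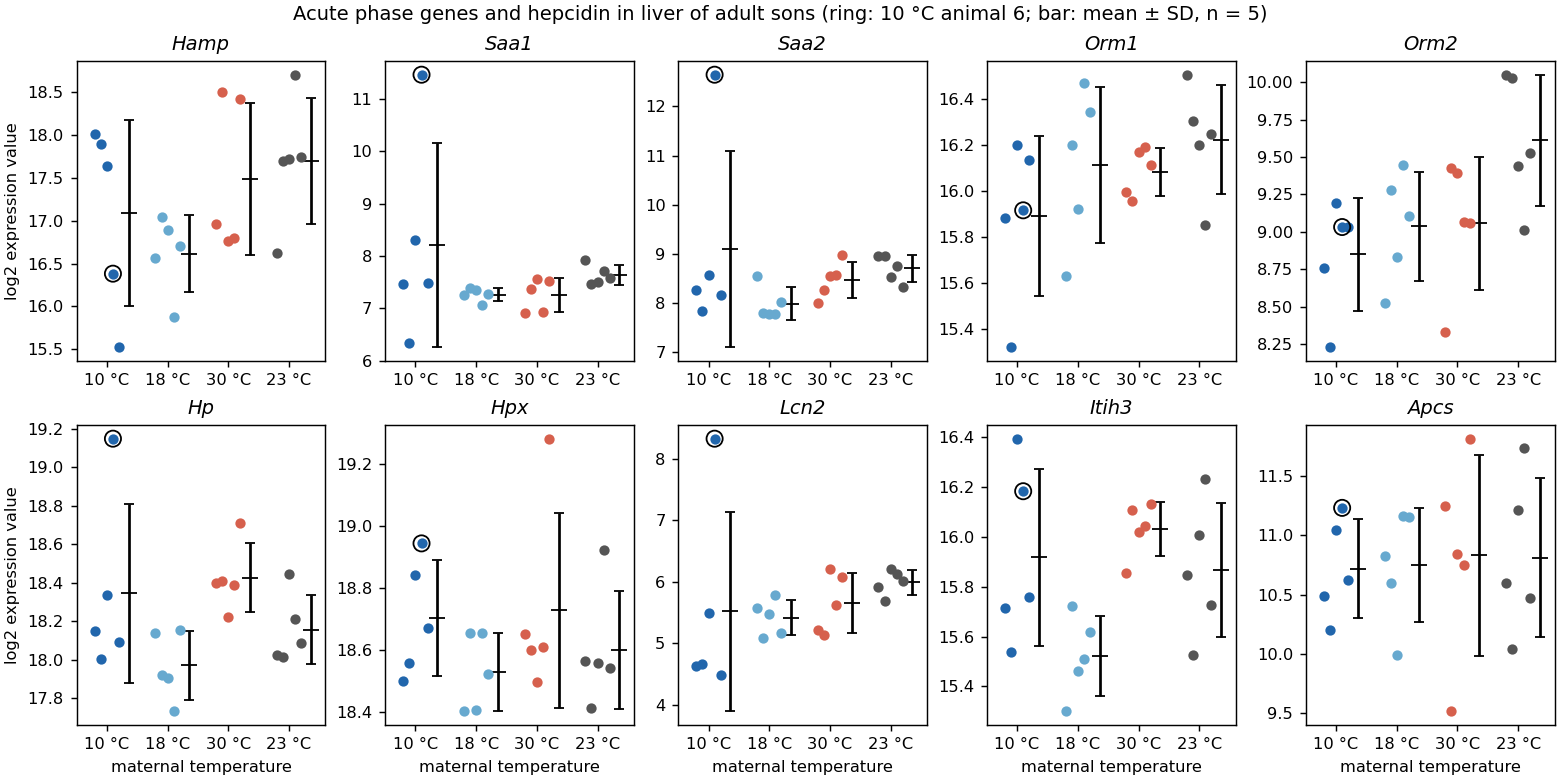
Log2 expression value (y axis, a separate scale for each gene) of the 10 genes on each of the 20 arrays, by maternal temperature, with the mean ± SD of 5 arrays as a bar and a ring around 10 °C animal 6. That array is the highest of 20 for Saa1, Saa2, Lcn2 and Hp, and the groups overlap in most panels.

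Of the 10 genes, hepcidin had the largest difference between 18 °C and 23 °C offspring. Hamp stood at 18.01, 17.89, 17.64, 16.38 and 15.53 in 10 °C offspring. It stood at 16.56, 17.04, 16.90, 15.88 and 16.71 in 18 °C offspring, and at 16.97, 18.50, 16.76, 16.80 and 18.42 in 30 °C offspring. Values of 23 °C offspring were 16.62, 17.69, 17.72, 18.70 and 17.74. All 5 of the 18 °C values lie below 4 of the 5 control values, and the lowest control array, 23 °C animal 1, falls inside the 18 °C range. The 10 °C and 30 °C groups each spread across both high and low values. Hamp averaged 16.62 ± 0.45 in 18 °C and 17.70 ± 0.74 in 23 °C offspring (SD, n = 5 each), a log2 difference of -1.08 ± 0.45 (SE, 95% interval -2.01 to -0.15), or 2.11-fold lower. This did not pass over all clusters (limma adjusted p = 0.485). Against 30 °C offspring the 18 °C group differed by -0.87 ± 0.45 (limma adjusted p = 0.643). The 10 °C group differed from 23 °C by -0.61 ± 0.45 (limma adjusted p = 0.635), and by -0.43 ± 0.48 without animal 6 (0.763), and the 30 °C group by -0.21 ± 0.45 (0.996). By mean level the rising order was 18 °C (16.62), 10 °C (17.09), 30 °C (17.49) and 23 °C (17.70) offspring, and no neighbours in that order differed beyond their spread.

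Other measures of the same arrays also differed between 18 °C and 23 °C offspring. Genes of the evening phase of the clock were higher in 18 °C offspring for 8 of 8 (median 0.62), and the hour of sampling is not labelled. With a clock score as a covariate the Hamp difference was -0.93 ± 0.46, and adjusted for the background rows it was -1.28 ± 0.55. Macrophage markers were higher for 8 of 9 (median 0.26, array means 7.37 to 8.16 in 18 °C and 6.84 to 7.75 in 23 °C offspring), and none passed. Within groups, the highest r with Hamp was 0.04 among the evening clock genes and 0.18 among the macrophage markers. Among clock genes of the morning phase it was 0.39 (Npas2). These are the highest signed r only, and negative r in these lists are not described. Evening clock genes and macrophage markers were higher where Hamp was lower, so negative r is the sign that matters for them. The small positive r therefore do not show whether these lists vary with Hamp. Hepatocyte markers were lower for 10 of 10, with Asgr1 at -0.17 and Apob at -0.13. Alb, Apoa1, Ttr and Serpina1a among them lie at the top of the scale, where differences are compressed. In bulk tissue fewer cells of a type and less RNA per cell cannot be told apart, and the part of these measures in the result was not tested.

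Hamp2, the neighbouring hepcidin copy, differed in step with Hamp, by -0.72 ± 0.47 between 10 °C and 23 °C (-0.53 ± 0.49 without 10 °C animal 6), -0.94 ± 0.47 between 18 °C and 23 °C, and -0.42 ± 0.47 between 30 °C and 23 °C. None of these passed (limma adjusted p = 0.557 between 18 °C and 23 °C). Of 25 measured genes of BMP and SMAD signalling, the route that couples hepcidin to iron, 21 were lower and 4 higher in 18 °C than in 23 °C offspring, with 0 called (median -0.12). Id2 and Id3, inhibitors of basic helix-loop-helix factors that are read as BMP targets, had the smallest p. Id2 differed by -0.96 ± 0.34 (limma adjusted p = 0.419) and Id3 by -2.06 ± 0.85 (0.483). Between 18 °C and 30 °C offspring 20 of the 25 were lower, again with 0 called. Between 10 °C and 18 °C offspring 21 were higher and 4 lower, with 0 called, led by Atoh8, a BMP-responsive factor, at 1.01 ± 0.27 (limma adjusted p = 0.388) and Id2 at 1.12 ± 0.34 (0.440). With the array of 10 °C animal 6 left out, the split was 18 and 7, with Atoh8 at 1.11 ± 0.28 and Id2 at 1.07 ± 0.36. Between 10 °C and 23 °C the split was 14 higher and 11 lower with or without that animal, and between 30 °C and 23 °C 13 higher and 12 lower.

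Within the groups, arrays high in Hamp were on the whole high in Id3. Over the 20 arrays, with group means removed, the 5 clusters most like Hamp were Hamp2 (r = 0.97), Pcbd2 (0.85), Slc25a38 (0.81), Id3 (0.80) and Mtrex (0.79). Without 10 °C animal 6 these r were 0.97, 0.86, 0.82, 0.80 and 0.78. Of the 25 BMP and SMAD genes, 5 had r over 0.5 with Hamp, which is 20% of them, where 2.60% of all clusters had. These were Id3, Id1 (0.74), the inhibitory Smad7 (0.63), the transducer Smad5 (0.62) and Tmprss6 (0.59), the protease that restrains hepcidin. Bmp6, the liver ligand of this route, had 0.49, and the receptor partners Hjv, Hfe and Tfr2 had -0.08, -0.07 and -0.19. These are descriptions over arrays that share normalization and, within a group, possibly litters. The interleukin-6 and interleukin-1 list had 1 of 24 genes over 0.5 with Hamp (Cish, 0.50).

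The serum amyloid A proteins, apolipoproteins that are strongly induced in the acute phase, and lipocalin 2 were far higher in 1 mouse than in the other 19. Saa1 stood at 7.45, 6.33, 8.31, 11.46 and 7.48 in 10 °C offspring. It stood at 7.25, 7.38, 7.34, 7.06 and 7.27 in 18 °C offspring, and at 6.90, 7.36, 7.57, 6.93 and 7.53 in 30 °C offspring. The 23 °C offspring had 7.91, 7.46, 7.50, 7.72 and 7.58. The 10 °C group holds both the highest and the lowest of the 20 values, and the 5 values of the 18 °C group all lie below the 5 of the 23 °C group. Saa1 was the 1 gene of 10 without overlap between 18 °C and 23 °C offspring, where 1.81% of all clusters were without. Its log2 difference was -0.37 ± 0.54 (limma adjusted p = 0.878), and it lay between -0.63 and 0.00085 over the 31 alternatives. The SE rests on the spread within all groups, which was 0.99 for Saa1, and 0.42 without 10 °C animal 6. Between 10 °C and 23 °C the difference was 0.57 ± 0.54 (limma adjusted p = 0.724), and -0.24 ± 0.26 without 10 °C animal 6 (0.749).

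Saa2 stood at 8.27, 7.84, 8.57, 12.65 and 8.17 in 10 °C offspring. It stood at 8.55, 7.79, 7.78, 7.78 and 8.02 in 18 °C offspring, and at 8.0, 8.27, 8.54, 8.56 and 8.98 in 30 °C offspring. In 23 °C offspring it stood at 8.96, 8.96, 8.53, 8.75 and 8.32. Apart from 10 °C animal 6 the 10 °C and 18 °C arrays lie at or below 8.57, and 3 of the 5 control arrays lie above that. The log2 difference was 0.40 ± 0.56 between 10 °C and 23 °C (limma adjusted p = 0.834), and -0.49 ± 0.21 without animal 6 (0.325). Between 18 °C and 23 °C it was -0.72 ± 0.56 (limma adjusted p = 0.743), and -0.72 ± 0.20 with that array left out of the shared spread (0.269). Between 30 °C and 23 °C it was -0.23 ± 0.56 (limma adjusted p = 0.996).

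Lcn2, lipocalin 2, which binds bacterial iron carriers, stood at 4.63, 4.66, 5.50, 8.32 and 4.48 in 10 °C offspring. It stood at 5.57, 5.09, 5.47, 5.79 and 5.17 in 18 °C offspring, and at 5.22, 5.13, 6.20, 5.62 and 6.08 in 30 °C offspring. Values of 23 °C offspring were 5.91, 5.68, 6.21, 6.13 and 6.02. The 10 °C group holds the highest value and the 3 lowest, and those 3 lie at levels seen in negative control rows, so that the true difference there may be understated. Between 10 °C and 23 °C the log2 difference was -0.47 ± 0.47 (limma adjusted p = 0.744), and its direction turned, to 0.02 ± 0.54, with the background rows as a covariate. Without 10 °C animal 6 it was -1.17 ± 0.23 (95% interval -1.66 to -0.69, limma adjusted p = 0.061), with all 4 remaining values below the 5 control values. In that comparison of 4 with 5 arrays, 1 of the 10 genes (Lcn2) did not overlap, and 5.17% of all clusters did not. With both changes together, an alternative chosen after seeing the data, it was -0.89 ± 0.27 (limma adjusted p = 0.660). Between 18 °C and 23 °C the difference was -0.57 ± 0.47 (limma adjusted p = 0.757), and -0.07 ± 0.54 with the background rows as a covariate.

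**Figure D2:**
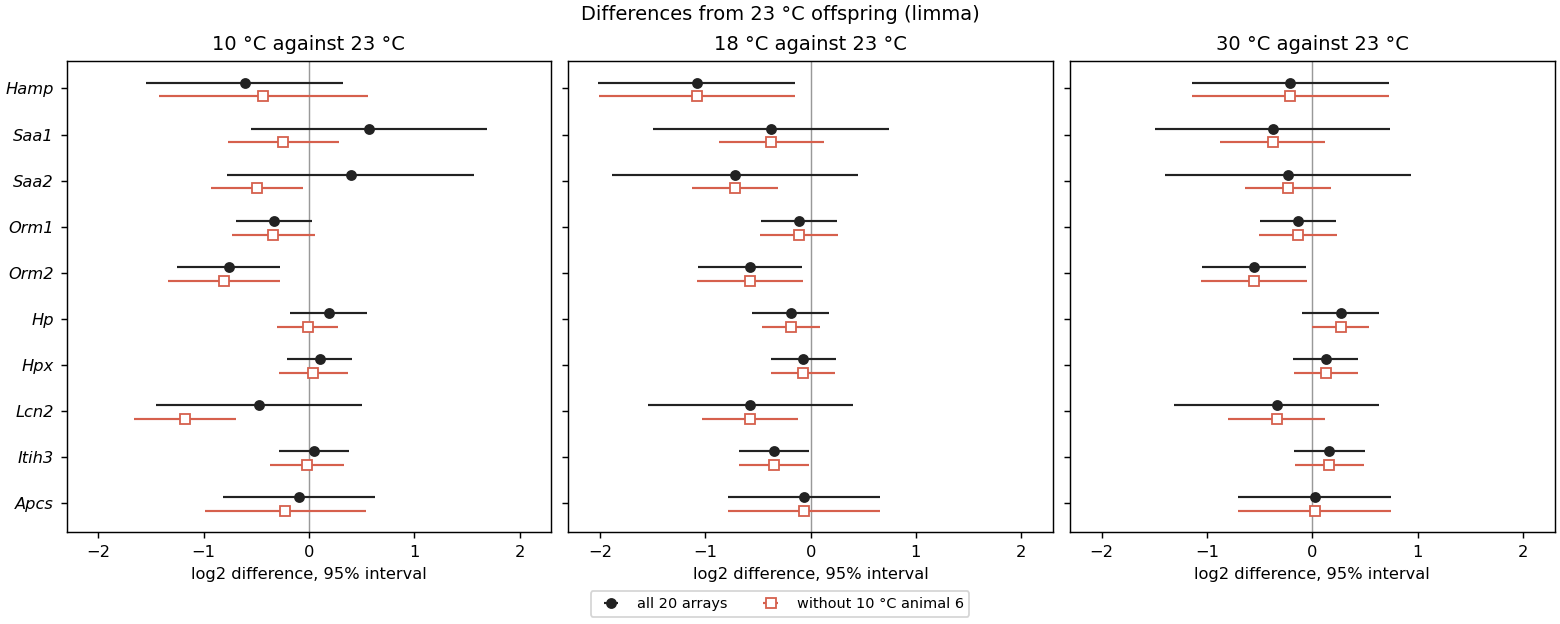
Log2 difference from 23 °C offspring (x axis, limma estimate with 95% interval) for the 10 genes (rows) in 10 °C, 18 °C and 30 °C offspring, from all 20 arrays (filled circles) and without 10 °C animal 6 (open squares). All 10 circles lie below 0 in the 18 °C panel, and leaving out that animal moves Saa1, Saa2 and Lcn2 most in the 10 °C panel.

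In 10 °C animal 6 itself, Saa2 was 4.43 above the mean of the other 4 arrays of its group on the log2 scale, which is 21.6-fold. Saa1 was 4.07 above it (16.8-fold), and Hp, haptoglobin, 1.0 (2.01-fold). Lcn2 was 3.51 above it, which may be understated, since 3 of those 4 arrays lie at levels of negative control rows. Hamp was not among the genes above: it was -0.88 from the mean of the other 4. Animal 8 of the same group was lower still in Hamp (15.53 against 16.38). The remaining genes lay 0.03 (Orm1) to 0.64 (Apcs) above. A list of other positive acute phase genes went the same way. Of 22 measured, 12 were the highest of 20 on this array, which is 54.5%, where 6.75% of all clusters were. More than 1 above the other 4 were 6 of the 22 (27.3%, against 1.16% of all clusters): the metallothioneins Mt2 (7.53, 185-fold) and Mt1 (6.42, 85.6-fold), which bind zinc and copper, the endotoxin-binding Lbp (2.05), Fgl1 (2.05), Lrg1 (1.89) and Saa3 (1.12). Of 24 genes of interleukin-6 and interleukin-1 signalling, 4 were the highest of 20 and 0 the lowest: the transcription factor Stat3 (1.15), the receptor adaptor Myd88 (1.0) and the receptors Il1r1 (0.75) and Il6st (0.71). Of 22 iron and haem genes, 8 were the highest, among them the exporter Slc40a1 (1.55) and the haem-degrading enzyme Hmox1 (1.35), and 2 the lowest, among them the transferrin receptor Tfrc (-1.43). Of negative acute phase genes, Serpina6, which carries corticosteroids, was the lowest (-1.45) and Serpina7, which carries thyroxine, the highest (2.16) (2 of 12 in this list were the highest and 1 the lowest). Of the hepatocyte markers, the enzymes Tat (-0.79) and Cps1 (-0.36) were the lowest of 20, and Apoa1 (0.05) was the highest. The rest of this list were Asgr1 (0.44), Hnf4a (0.42), Apob (0.25), F2 (0.18), Alb (0.06), Serpina1a (0.02) and Ttr (-0.01). All 11 measured neutrophil markers had means below the negative control rows, and on this array they averaged 3.19, where the 10 °C arrays ranged from 3.02 to 3.20. Its macrophage markers averaged 7.62, within the 7.50 to 8.04 of its group. With 1 mouse there is no replicate of this pattern, and apart from Dixon's ratio for single genes, given below, no test was made of it.

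**Figure D3:**
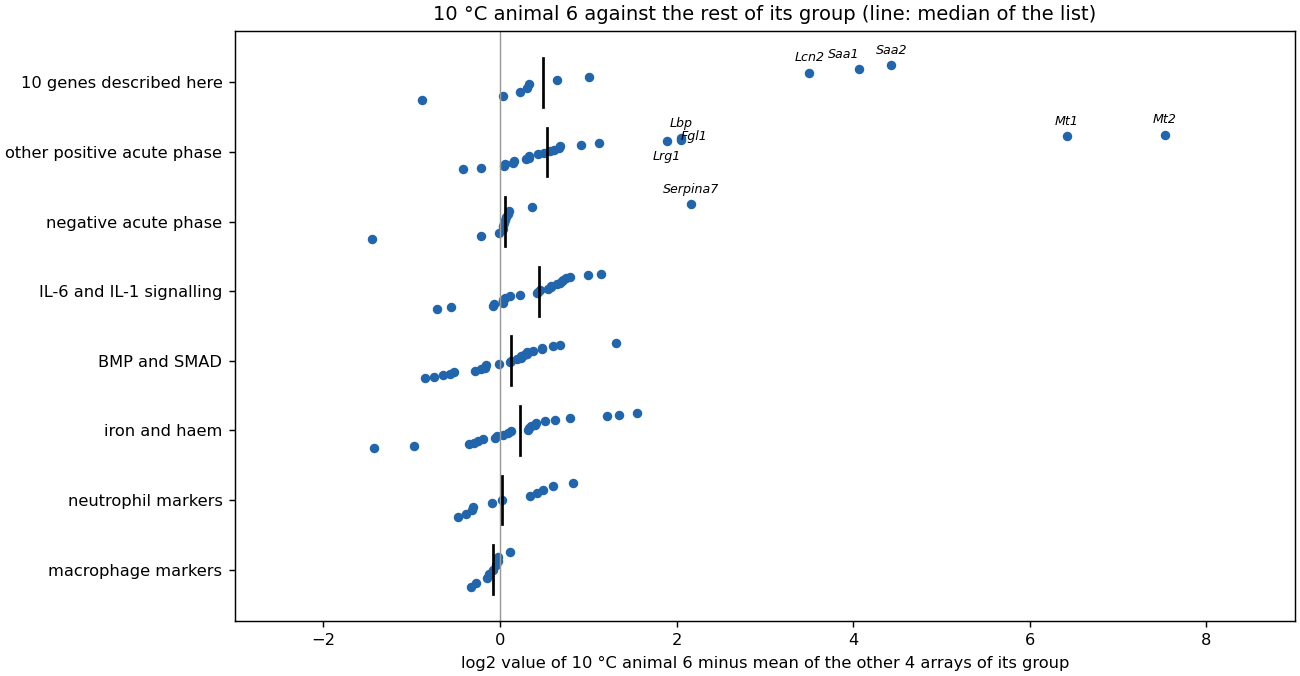
Log2 value of 10 °C animal 6 minus the mean of the other 4 arrays of its group (x axis) for each gene of 8 lists (rows), with the list median as a line. Mt2, Mt1, Saa2, Saa1 and Lcn2 lie farthest right, and the neutrophil and macrophage markers lie around 0.

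The orosomucoids are abundant lipid-binding glycoproteins of plasma. Orm2 stood at 8.76, 8.23, 9.19, 9.03 and 9.04 in 10 °C offspring. It stood at 8.52, 9.28, 8.83, 9.44 and 9.10 in 18 °C offspring, and at 8.33, 9.43, 9.40, 9.07 and 9.06 in 30 °C offspring. The 23 °C offspring had 10.05, 10.03, 9.44, 9.01 and 9.53. Control animals 1 and 2 are the highest of all 20, and control animal 17 falls among the other groups, so each group overlaps with 23 °C. The log2 difference from 23 °C was -0.76 ± 0.24 in 10 °C offspring (95% interval -1.25 to -0.27, limma adjusted p = 0.218), or 1.70-fold lower, and -0.81 ± 0.26 without animal 6 (0.179). It was -0.58 ± 0.24 in 18 °C (limma adjusted p = 0.479) and -0.56 ± 0.24 in 30 °C offspring (0.978). With the background control rows as a covariate these became -0.45 ± 0.26, -0.26 ± 0.26 and -0.48 ± 0.22. Orm1 ranged from 15.32 to 16.20 in 10 °C, 15.63 to 16.47 in 18 °C, 15.96 to 16.19 in 30 °C and 15.85 to 16.51 in 23 °C offspring. It was lower than 23 °C by a log2 difference of -0.33 ± 0.17 in 10 °C offspring (limma adjusted p = 0.471), and -0.34 ± 0.19 without animal 6 (0.478). Its differences were -0.11 ± 0.17 in 18 °C and -0.14 ± 0.17 in 30 °C offspring.

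Haptoglobin, which captures free haemoglobin, and Itih3, a heavy chain that is coupled to hyaluronan, were lower on every 18 °C than on every 30 °C array. Hp stood at 18.15, 18.00, 18.34, 19.15 and 18.10 in 10 °C offspring. It stood at 18.14, 17.92, 17.91, 17.73 and 18.16 in 18 °C offspring, and at 18.40, 18.41, 18.22, 18.39 and 18.71 in 30 °C offspring. In 23 °C offspring it stood at 18.02, 18.02, 18.45, 18.21 and 18.09. Every 18 °C value of Hp is below every 30 °C value, while both groups overlap with 23 °C. Itih3 stood at 15.71, 15.54, 16.39, 16.18 and 15.76 in 10 °C offspring. It stood at 15.30, 15.72, 15.46, 15.51 and 15.62 in 18 °C offspring, and at 15.86, 16.11, 16.02, 16.04 and 16.13 in 30 °C offspring. Values of 23 °C offspring were 15.85, 15.52, 16.01, 16.23 and 15.73. Here too the 18 °C and 30 °C arrays do not overlap, which held for these 2 of the 10 genes and for 1.41% of all clusters. The log2 difference between 18 °C and 30 °C was -0.46 ± 0.18 for Hp (1.37-fold lower, limma adjusted p = 0.508) and -0.51 ± 0.16 for Itih3 (1.42-fold lower, 0.408), and neither passed.

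Itih3 also differed between 18 °C and 23 °C by -0.35 ± 0.16 (limma adjusted p = 0.523), and by -0.22 ± 0.13 with a clock score as a covariate. Between 10 °C and 18 °C the difference was 0.40 ± 0.16 for Itih3 (limma adjusted p = 0.551) and 0.38 ± 0.18 for Hp (0.611). Without 10 °C animal 6 these were 0.33 ± 0.17 and 0.18 ± 0.14. Of the 22 other positive acute phase genes, 17 were lower in 18 °C than in 30 °C offspring with 0 called (median -0.19). Complement factor B (Cfb) at -0.58 ± 0.19 (limma adjusted p = 0.408) and ceruloplasmin (Cp), the copper ferroxidase, at -0.44 ± 0.15 (0.448) had the smallest p. Against 23 °C offspring, 9 of the 22 were lower in 10 °C, 18 in 18 °C and 6 in 30 °C offspring, with 0 called in each. Leaving out 10 °C animal 6, 14 were lower in 10 °C offspring, and the median there turned to -0.06, against 0.04 with it. Of 12 negative acute phase genes, 7, 9 and 7 were lower in 10 °C, 18 °C and 30 °C offspring, with 0 called, and 10 in 10 °C offspring without animal 6. Itih2 is counted in both the positive and the negative list wherever they are given.

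For the other 2 plasma proteins all groups overlapped. Hpx, hemopexin, which carries haem, ranged from 18.50 to 18.94 in 10 °C, 18.40 to 18.66 in 18 °C, 18.50 to 19.28 in 30 °C and 18.41 to 18.92 in 23 °C offspring. Its differences from 23 °C were 0.10, -0.07 and 0.13, each ± 0.15, in 10 °C, 18 °C and 30 °C offspring. Without 10 °C animal 6 that in 10 °C offspring was 0.04 ± 0.16, and without 30 °C animal 8 that in 30 °C offspring was -0.01 ± 0.13. Apcs, serum amyloid P component, a pentraxin, ranged from 10.20 to 11.23 in 10 °C, 9.99 to 11.17 in 18 °C, 9.52 to 11.82 in 30 °C and 10.04 to 11.74 in 23 °C offspring. Its differences from 23 °C were -0.09, -0.06 and 0.02, each ± 0.35, and that in 10 °C offspring was -0.22 ± 0.37 without animal 6. With single arrays left out, the difference in 30 °C offspring lay between -0.22 and 0.35. The 95% interval of the Apcs difference in 30 °C offspring ran from -0.70 to 0.74, and that of Hpx from -0.18 to 0.44, so differences of those sizes are not distinguishable here.

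The genes differed in how much they varied between mice of 1 group. The spread within groups put Saa2, Saa1, Lcn2, Hamp and Apcs at percentiles 99.6, 99.5, 99.3, 99.2 and 98.1 of all clusters. Without 10 °C animal 6, Hamp and Apcs stood at 99.3 and 98.3, whereas Saa2, Lcn2 and Saa1 stood at 63.9, 78.8 and 86.9. Between the lowest and the highest of the 20 arrays lay a 9.03-fold range for Hamp, 4.92-fold for Apcs and 3.53-fold for Orm2. Hpx, Itih3, Orm1 and Hp covered 1.84-fold, 2.13-fold, 2.27-fold and 2.67-fold.

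**Figure D4:**
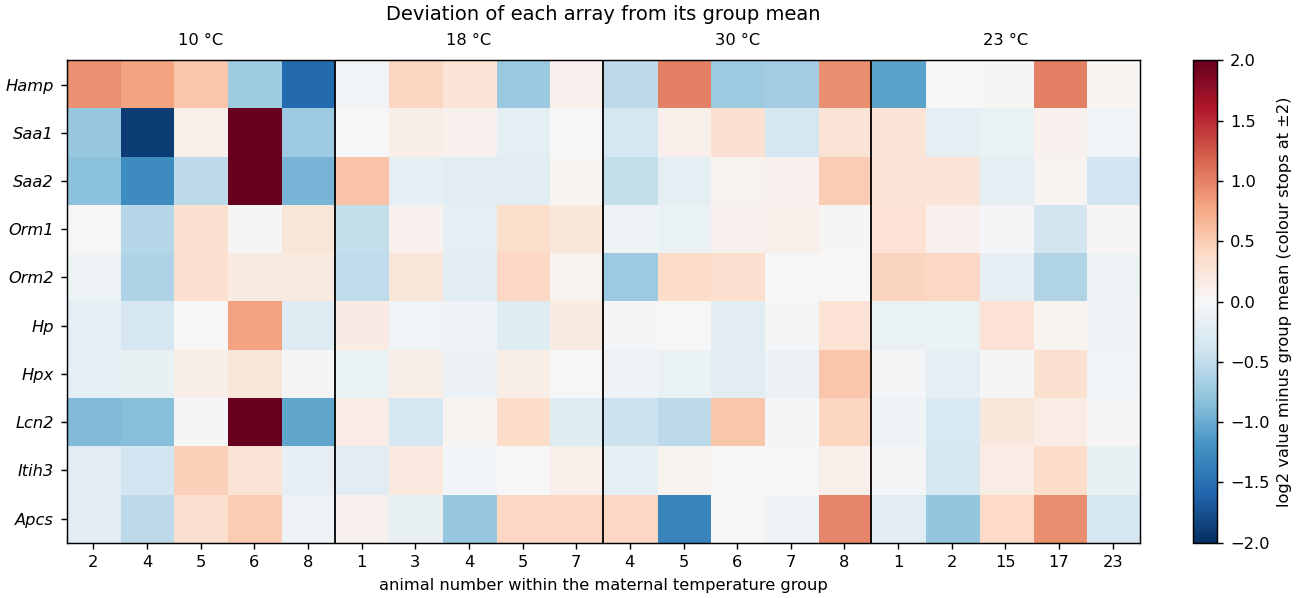
Log2 value of each array minus the mean of its group (colour, stopped at ±2) for the 10 genes (rows) and 20 arrays (columns, by maternal temperature and animal number). The dark red cells of 10 °C animal 6 in Saa1, Saa2 and Lcn2 stand beside a blue cell in Hamp. Hamp was lower still in animal 8 of that group (15.53 against 16.38), where Saa1 was 7.48.

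Between mice of the same maternal temperature, some of the 10 genes varied together. Of 45 pairs, 4 passed with Pearson's r of deviations from group means over 20 arrays (100000 permutations within groups, Benjamini-Hochberg over the 45 pairs), and 3 with Spearman's rho. Orm1 and Orm2 had r = 0.79 (permutation p = 0.0001, adjusted p = 0.0045) and rho = 0.75 (permutation p = 0.00041, adjusted p = 0.0184). Without the 2 arrays farthest from the median of Orm1, r was 0.68 (adjusted p = 0.0553). Hpx with Apcs had r = 0.72 (permutation p = 0.00376, adjusted p = 0.0423) and rho = 0.70 (permutation p = 0.00164, adjusted p = 0.0246), and r was 0.61 without 10 °C animal 6 and 30 °C animal 8 (adjusted p = 0.134). Hpx with Itih3 had r = 0.64 (permutation p = 0.00098, adjusted p = 0.022) and rho = 0.74 (permutation p = 0.001, adjusted p = 0.0225), and r was 0.78 without the same 2 arrays (adjusted p = 0.0553).

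Saa1 and Saa2 had r = 0.94 (permutation p = 0.00198, adjusted p = 0.0297) and rho = 0.60 (permutation p = 0.0234, adjusted p = 0.117). Without 10 °C animals 4 and 6, r was 0.44 (adjusted p = 0.372), so the relation rests on those arrays. Of the 45 pairs, 12 had r over 0.5, and 8 without 10 °C animal 6, while 8 and 1 had r over 0.7. The r of Hamp with the other 9 lay between -0.49 (Orm1, permutation p = 0.0325, adjusted p = 0.0975, rho = -0.49, adjusted p = 0.124) and 0.22 (Hpx, adjusted p = 0.662). When 10 °C animal 6 was left out, the limits were -0.50 (Orm1) and 0.41 (Hp), where Hp had 0.04 with it. Saa1, Saa2 and Lcn2 then stood at 0.02, 0.04 and 0.03, against -0.21, -0.22 and -0.21 with it. The clusters most like Saa1 were Saa2 (0.94), Lcn2 (0.91), C87436 (0.87), Mt2 (0.85) and Rbpms (0.85), at 0.53, 0.45, 0.50, 0.03 and 0.41 without 10 °C animal 6. Those most like Orm1 were Mocos (0.86), Orm2 (0.79), Cyp2j6 (0.77), Zfp12 (0.75) and Prkar2b (0.72). They stood at 0.90, 0.79, 0.79, 0.75 and 0.77 without that array.

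**Figure D5:**
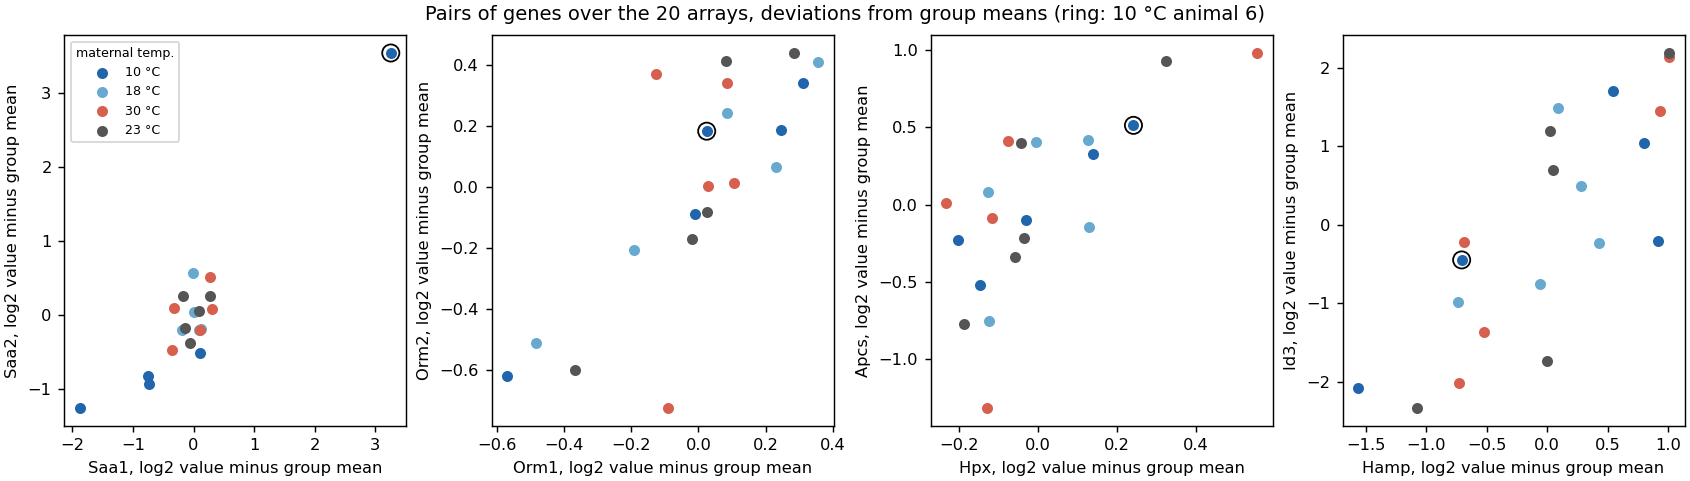
Log2 value minus group mean of 1 gene against another (x and y axes) over the 20 arrays, coloured by maternal temperature, for Saa1 and Saa2, Orm1 and Orm2, Hpx and Apcs, and Hamp and Id3. The ringed 10 °C animal 6 lies far from the other arrays in the Saa panel, and the points of the Hamp panel run from low to high in both genes (r = 0.80).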

How the data were processed

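Liver RNA of 20 mice was hybridised to Affymetrix arrays, 1 per mouse. The deposited table holds log2 expression values. The submitters' processing notes name RMA, which corrects background, normalizes by quantiles and summarises probes, and the Transcriptome Analysis Console; their versions, and a genome build, are not given in the sources used here. Quantile normalization hides a shift common to all genes, and RMA compresses differences of dim genes. The number of arrays limits the precision.

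Of 28846 rows, 6640 control rows were left out, and 22206 transcript clusters were fitted with limma 3.58.1 in R 4.3.3 (1 mean per group, all 20 arrays, eBayes, two-sided). P-values were adjusted over all clusters by Benjamini-Hochberg, with a threshold of 0.05. Symbols come from the platform annotation, which gives 1 to 19572 clusters. Each of the 10 genes is described; of other lists the 2 members with the smallest p are named, and for Hamp, Saa1 and Orm1 the 5 clusters with the highest r. In 10 °C animal 6, genes of the lists were named after their values were seen. The members and lists were chosen with earlier results of these data known. Animal numbers were not taken to pair the groups. Of 11 same-numbered pairs of arrays 1 correlated over 0.1 (-0.15 to 0.11), and of 139 differently numbered pairs 17 did (-0.17 to 0.33). So few pairs cannot exclude a pairing. Alternatives were other filters, variance models, array weights, repeated quantile normalization, covariates, a replicate block and leaving out each array. For the comparisons, an exact permutation test and a fit of only the groups compared were added. The fit was tested on simulated data.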

Additional observations from a re-analysis of the deposited data

Results flagged for a closer look

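Of 40 groups of 5 arrays (10 genes in 4 maternal temperatures), 4 hold an array whose gap to the nearest other takes up more of the group's range than Dixon's critical value allows. Chance marks about 1 in 20 groups. The array of 10 °C animal 6 passed that value in Saa2 (12.65), Lcn2 (8.322) and Hp (19.15). Its gap took up 0.846, 0.735 and 0.711 of the range, so Hp passed only narrowly. In Saa1 (11.46) its gap took up 0.615 of the range, short of the critical value of 0.71. The array of 30 °C animal 8 was far above the others of its group in Hpx (19.28). On that array Mt1 and Mt2 were also the second highest of 20, at 13.79 and 9.34. Of the 22 other positive acute phase genes, 2 were the highest of 20 on it and 3 the lowest, among them Lrg1 (11.14).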

How the results depend on the processing

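No gene of the 10 passed in the 31 alternatives of the 6 comparisons (0 of 1860 values of differences), nor in the 28 run of the F-test and of the slope. An exact permutation test, 1 of the 31, has a smallest possible p of 0.00794 before adjustment. Saa1 between 18 °C and 23 °C, without overlap, stood in that test at an adjusted p of 0.437. That alternative could thus not call a gene in this comparison. The smallest limma adjusted p was 0.061, for Lcn2 between 10 °C and 23 °C without 10 °C animal 6. Of the 60 differences, 33 kept their sign in every alternative. Many alternatives cannot change a difference of group means: the filters, the variance models, the exact test and the fit of only the groups compared. Leaving out an array of a group not compared cannot change it either. Leaving out single arrays gave Hamp differences (18 °C against 23 °C) of -1.35 to -0.83, Orm2 differences (10 °C against 23 °C) of -0.91 to -0.61 and Itih3 differences (18 °C against 30 °C) of -0.56 to -0.45. With the replicate block, although the numbers are not known to pair the samples, 0 members were called, and these were -0.15 (Hamp), -1.54 (Orm2) and -0.52 (Itih3). The background rows as a covariate put Lcn2 between 10 °C and 23 °C at 0.02. Of the pairs of genes, 4 passed over 20 arrays and 0 without the 2 arrays farthest from the median, with 18 arrays left. Values of Lcn2 near the negative control rows limit its differences.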
